A study of Mus musculus with 4 samples.

Results

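The mitosis and spindle genes are 43 genes that drive chromosome segregation and cell division: mitotic cyclins and their kinase, chromosome condensation factors, checkpoint and kinetochore proteins, spindle motors, cytokinesis factors and anaphase regulators. They were chosen by symbol from a list of names that leaves out the genes of DNA replication. All 43 were found among the 49585 genes counted. In differentiating myoblasts that overexpressed C/EBPβ, 40 of the 43 were lower than in the empty-vector controls and none was higher, where 20.9% of all genes tested were lower and 22.4% higher. The median gene of the 43 was at 48.4% of its control level. The lowest relative to control were Kif23, a motor of the central spindle, and Ube2c, the ubiquitin-conjugating enzyme of the anaphase-promoting complex, which fell 2.70-fold and 2.69-fold. Ube2c overlaps the muscle gene Tnnc2 on the opposite strand, and the part of Tnnc2 fragments in its value was not tested. Cdk1, the kinase that starts mitosis, the condensin subunit Smc4 and the checkpoint protein Bub3 did not pass the test.

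The study used C2C12 cells, a myoblast line from C3H mice that leaves the cell cycle and fuses into myotubes when serum is withdrawn. The empty-vector group carried the retroviral vector pLXSN alone and the other group carried the vector for C/EBPβ, a leucine zipper transcription factor, with 2 libraries in each group. All 4 libraries came from G418-resistant pools (1200 µg/ml for 7 days), which proliferated for 2 days and were then held for 2 days in 2% horse serum from 90% confluency. Every library therefore carries an integrated vector and the resistance gene, and the pools mix cells with different integration sites. Whether libraries of 1 group are separate cultures is not in the labels, so p-values cover only the spread among the sequenced libraries, and part or all of it may be technical.

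Cells that enter mitosis switch on a shared programme of genes late in the cycle, and myoblasts that withdraw from the cycle switch it off before fusing. Cyclin-bound Cdk1 starts the process, condensins compact the chromosomes, kinetochores attach them to the spindle, and a checkpoint holds back the anaphase-promoting complex until all are attached. In resting cells these genes are held down by the DREAM complex, which is known to act through a short element called the CHR. In dividing cells they are activated by MYBL2, FOXM1 and the CCAAT-binding factor NF-Y. The programme is widely read as a measure of how many cells of a population are dividing.

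The libraries held 45448661 and 51537847 assigned fragments in the controls and 50493417 and 36461091 with C/EBPβ. Cebpb itself was counted at 42.7 and 41.3 CPM (fragments of the gene per 1000000 of the TMM-scaled library size) in the controls and at 502 and 442 CPM with the vector (log2 fold change 3.49, standard error 0.11, adjusted p = 1.38e-06). Its levels matched the labels in all 4 libraries. A gene was called lower or higher at an adjusted p under 0.05 over all 15886 genes tested, whose median log2 fold change was 0.01. Without control library 2 the 3315 lower calls became 1855. Markers of the muscle lineage were counted in all 4 libraries. With C/EBPβ 5 of the 6 were lower and 1, Myf5, was higher. Myf5 rose from 28.1 and 32.9 to 71.2 and 59.1 CPM (log2 fold change 1.10, adjusted p = 0.00044). The summed level of the 6 was 7624 and 7757 CPM in the controls against 3329 and 4193 CPM with C/EBPβ. Most of that sum came from Des, Chrna1 and Myog, and Myog marks myoblasts committed to differentiate. The 6 markers are not of a single stage, so their sum does not measure how many cells were myoblasts. Of 9 myeloid markers 6 could be tested, of which 3 were higher and 1 lower, and their summed level was 9.04 and 8.05 CPM in the controls against 44.8 and 41.5 CPM with C/EBPβ. Lyz2, lysozyme, rose from 0.135 and 0.0791 to 28.4 and 26.1 CPM, Cd14, a lipopolysaccharide receptor, from 5.39 and 4.75 to 11.9 and 10.9 CPM, and Csf1r, the receptor of macrophage colony-stimulating factor, from 0.337 and 0.395 to 0.632 and 1.12 CPM. Itgam, an integrin, fell from 0.426 and 0.514 to 0.0383 and 0.219 CPM. Adgre1 and Tyrobp were at 0 in every library and Ptprc, the common leukocyte antigen, did not exceed 0.0273 CPM. Endothelial markers summed to 0.651 and 0.831 CPM in the controls and 0.708 and 0.273 CPM with C/EBPβ. The part of these other markers in the values below was not tested.

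All 43 genes passed the filter on low counts, with 110 fragments for Cdc25c in its shallowest library and up to 9252 for Top2a. Together they took 0.164% and 0.220% of the assigned fragments in the controls and 0.113% and 0.0931% with C/EBPβ, so the groups did not overlap. The log2 fold changes of single genes (C/EBPβ against empty vector) ran from -1.43 to -0.14 with a median of -1.05, and changes are on that scale below unless given as folds. None of the 43 was above 0 in edgeR, DESeq2 or limma-voom, so none would be called higher at any threshold. A fall of at least 2-fold that passed the test was seen for 28 of them, against 7.50% of all genes. Both C/EBPβ libraries were below both controls for 43 of 43 genes, against 36.7% of all genes. In bulk RNA, fewer dividing cells and less of these transcripts per dividing cell cannot be told apart.

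**Figure D1:**
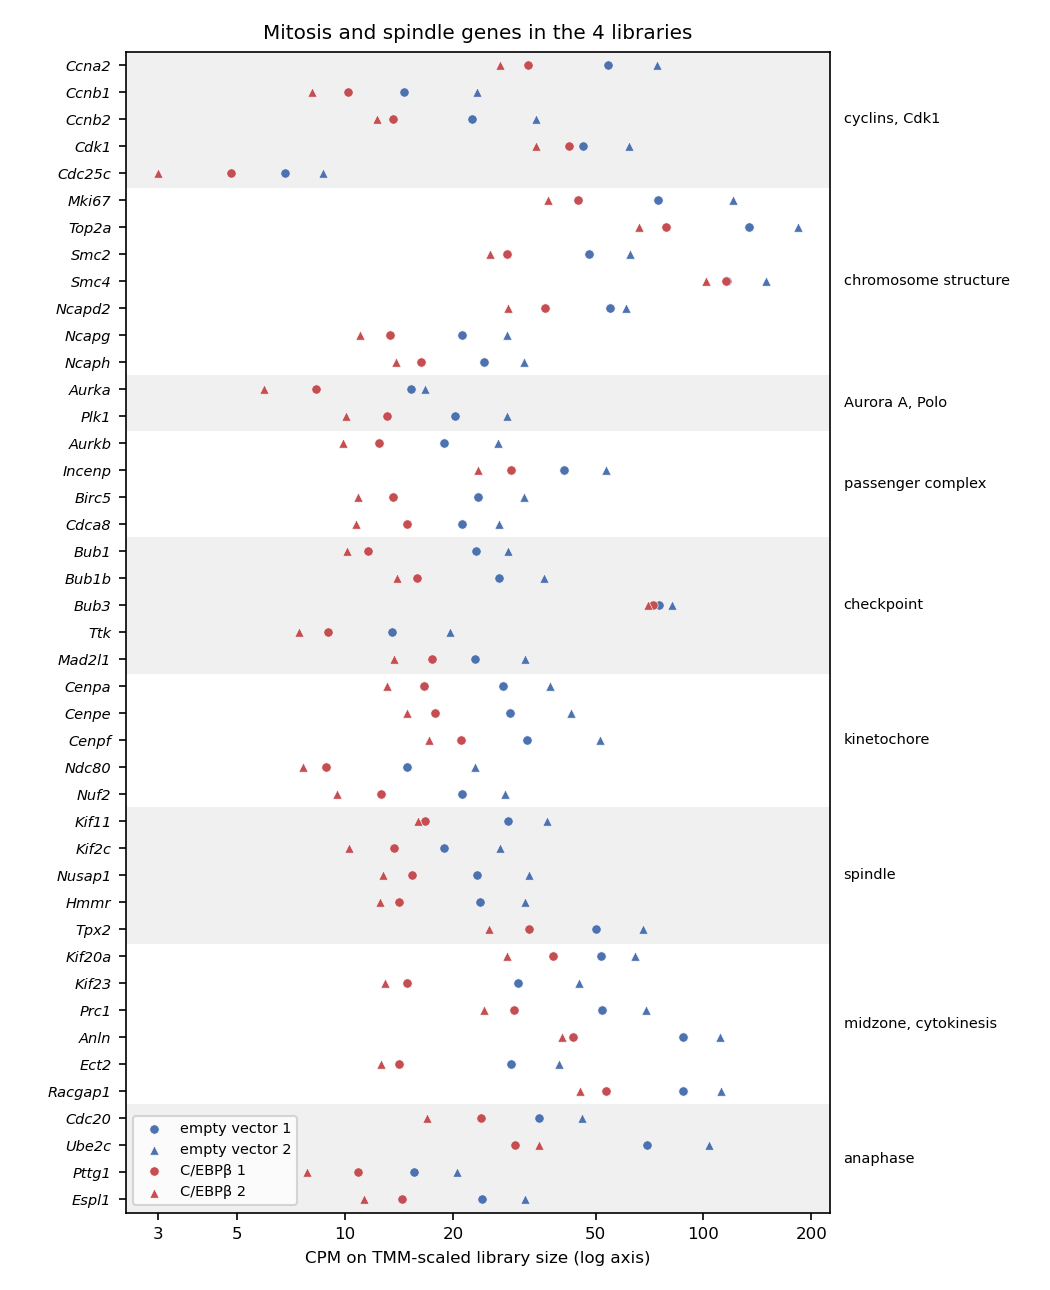
Level of each of the 43 genes in the 4 libraries, in CPM on a log axis, with genes in rows grouped by role and 1 point per library. For all 43 genes both C/EBPβ points lie to the left of both control points, narrowly so for Smc4 and Bub3.

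The libraries within a group were also ordered. Control library 2 was above control library 1 for 43 of 43 genes, by a median log2 difference of 0.42 (range 0.12 to 0.70), whereas it was above for 48.7% of all genes. C/EBPβ library 1 was above C/EBPβ library 2 for 42 of 43, against 50.5% of all genes, and Ube2c was the exception. The full order, from control library 2 through control library 1 and C/EBPβ library 1 to C/EBPβ library 2, held for 42 of the 43 genes (97.7%) and for 6.35% of all genes. It was not particular to the 43. The same order held for 82.1% of other spindle and centrosome genes, 71.4% of DNA replication genes and 68.6% of other kinetochore genes. Among the other cell cycle lists given below, the lowest share was 11.8%, in the anaphase-promoting complex. The nearest libraries of the 2 groups, control 1 and C/EBPβ 1, still differed by a median of 0.69 on the log2 scale. Leaving out control library 2 gave a median log2 fold change of -0.81 with 33 genes called lower, and leaving out control library 1 gave -1.26 with 42.

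The sequences around the starts of these genes were searched for the letters of known control elements. RefSeq promoter windows (GRCm38.p6, 250 bases before to 50 after the transcription start) were found for 36 of the 43 genes, and Bub3, Ect2 and Prc1 had 2 windows each, 39 in all. Stretches of 150 bases from 6 genes are printed 5′ to 3′ along the gene, from 120 bases before the start to 30 after it, for Kif23 as the gene with the largest fall, for Ccnb2, Cdc20 and Bub1 as genes that fell, and for Cdk1 and Bub3 as 2 that did not pass. Capitals mark the CHR letters TTTGAA or TTCGAA and the NF-Y letters CCAAT, on either strand.
Kif23: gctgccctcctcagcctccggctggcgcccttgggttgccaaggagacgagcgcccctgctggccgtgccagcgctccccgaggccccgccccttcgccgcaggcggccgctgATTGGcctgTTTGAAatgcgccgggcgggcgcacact
Ccnb2: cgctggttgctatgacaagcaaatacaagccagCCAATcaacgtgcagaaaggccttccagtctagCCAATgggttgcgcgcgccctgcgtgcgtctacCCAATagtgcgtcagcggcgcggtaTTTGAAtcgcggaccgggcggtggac
Cdc20: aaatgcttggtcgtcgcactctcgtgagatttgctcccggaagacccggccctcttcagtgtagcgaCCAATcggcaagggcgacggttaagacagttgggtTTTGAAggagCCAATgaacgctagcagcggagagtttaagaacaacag
Bub1: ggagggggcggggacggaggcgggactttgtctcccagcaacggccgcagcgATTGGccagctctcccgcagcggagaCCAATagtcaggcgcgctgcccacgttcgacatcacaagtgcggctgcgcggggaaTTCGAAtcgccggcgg
Cdk1: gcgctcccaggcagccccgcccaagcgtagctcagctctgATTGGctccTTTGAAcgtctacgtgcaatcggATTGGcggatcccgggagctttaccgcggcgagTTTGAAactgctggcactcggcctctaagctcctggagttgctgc
Bub3: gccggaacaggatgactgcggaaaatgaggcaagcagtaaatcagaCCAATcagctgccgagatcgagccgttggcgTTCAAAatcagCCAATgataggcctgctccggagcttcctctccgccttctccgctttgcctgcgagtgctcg
The Kif23 stretch lies at chr9:61946770-61946919 on the minus strand, and those of Ccnb2 at chr9:70421525-70421674, Cdc20 at chr4:118437314-118437463, Bub1 at chr2:127831830-127831979 and Cdk1 at chr10:69352883-69353032, all on the minus strand. The Bub3 stretch lies at chr7:131560250-131560399 on the plus strand. Each of the 6 holds letters of both kinds, the genes that did not pass included. None of the 8 genes without CHR letters was printed, so the 6 do not show how common the letters are. In Ccnb2 the CHR letters start 4 bases after the transcription start and the CCAAT letters lie 21, 54 and 87 bases before it. Cdk1 carries CHR letters 15 and 71 bases before its start.

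Across the 39 windows CHR letters were found in 31 (79.5%), against 19.2% of all 32851 RefSeq windows of the same length. CCAAT on either strand was found in 30 (76.9%) against 37.4%, and both together in 28 (71.8%) against 7.52%; the CHR and CCAAT letters shared bases in 1 of the 39 windows. TTCGAA reads the same on both strands and was counted once. Searching the strand of the gene alone gave 59.0% for CHR and 48.7% for CCAAT, against 11.6% and 21.1% of all windows. Taking 1 window per gene, 28 of 38 CHR matches (73.7%) and 41 of 62 CCAAT matches (66.1%) lay between 100 bases before and 50 after the start. E2F letters (TTTGGCGC, TTTCCCGC, TTTCGCGC or TTTGCCGC, either strand) were found in 3 windows, 7.69% against 2.26%. The C/EBP letters TTGCNNAA were in none of the 39 windows and in 10.8% of all windows, which says only that these letters are not in this stretch. These matches are descriptions of sequence and were not measured as bound sites.

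**Figure D2:**
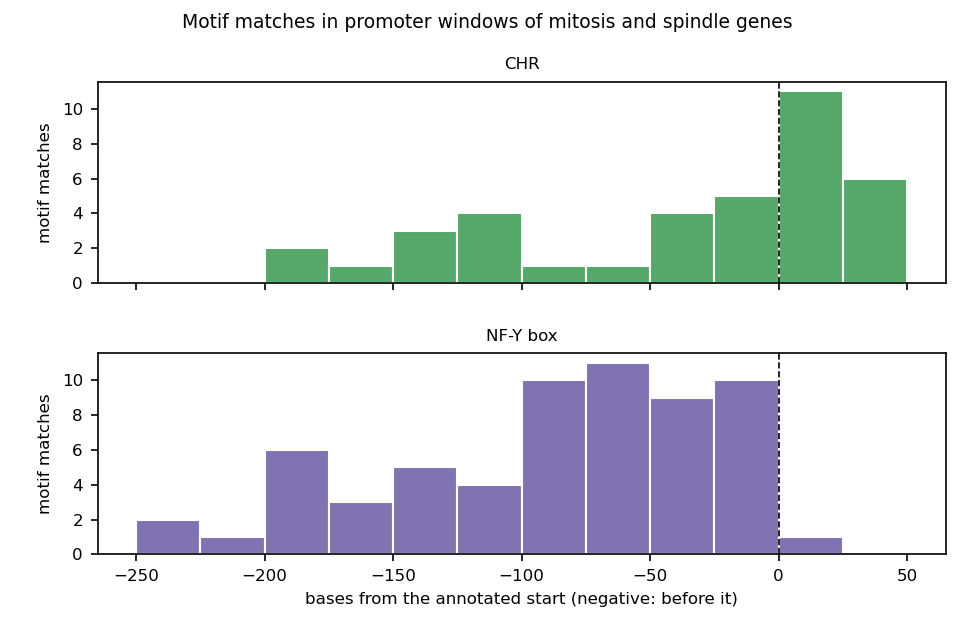
Number of CHR and CCAAT matches per 25-base bin of distance from the transcription start, 1 window for each of 36 genes. CHR matches are most numerous in the 25 bases after the start, where there are 11, and CCAAT matches are spread over the 100 bases before it.

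Genes with and without CHR letters overlapped in the size of their change. The 28 genes with the letters had a median log2 fold change of -1.10 (range -1.43 to -0.14), and the 8 without, Ccnb1, Ncaph, Birc5, Mad2l1, Cenpe, Nuf2, Nusap1 and Pttg1, had a median of -1.02 (range -1.16 to -0.81).

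Mitotic entry is driven by A and B cyclins on Cdk1, after the phosphatase Cdc25c removes the inhibitory phosphates. Of these 5 genes 4 were lower, all but Cdk1. Ccna2, cyclin A2 (chr3:36564865-36572150), was counted at 54.1 and 74.3 CPM in the controls and at 32.5 and 27.1 CPM with C/EBPβ, a log2 fold change of -1.11 (standard error 0.17, adjusted p = 0.00353). Ccnb1, cyclin B1, stood at 14.6 and 23.3 against 10.2 and 8.07 CPM (-1.05, adjusted p = 0.018), and Ccnb2, cyclin B2, at 22.7 and 34.2 against 13.6 and 12.3 CPM (-1.14, adjusted p = 0.0058). For each cyclin the lower control library was above the higher C/EBPβ library. Cdk1 (chr10:69336635-69352938) was counted at 46.1 and 61.9 against 42.2 and 34.2 CPM, a log2 fold change of -0.50 with a 95% interval of -0.91 to -0.09 and an adjusted p of 0.0545. Its groups did not overlap either, and it passed in 7 of 13 alternative settings, with adjusted p from 9.85e-07 to 0.220. Cdc25c, the least abundant of the 43 in CPM, stood at 6.80 and 8.70 against 4.81 and 3.01 CPM (-0.97, adjusted p = 0.0151) and lost its call without control library 2. Ccnb1 shares 23.4% of its 50-base windows with other annotated genes, among them its pseudogene Ccnb1-ps, and lost its call with the replicate numbers as a block (adjusted p = 0.0507, the highest over all settings).

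The ratio of each cyclin to Cdk1, from length-scaled values (FPKM, CPM per kilobase of exon), was lower with C/EBPβ than in the controls. For Ccna2 it was 0.990 and 1.01 in the controls and 0.650 and 0.670 with C/EBPβ. For Ccnb2 it went from 1.11 and 1.24 to 0.726 and 0.807, and for Ccnb1 from 0.259 and 0.307 to 0.198 and 0.193. These pairs and the others below were chosen after the values were seen, and 2 against 2 libraries cannot give an exact 2-sided permutation p below 0.333, so no ratio was tested.

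Chromosome structure was covered by 7 genes, of which 6 were lower and 1, Smc4, was not called. Top2a, the topoisomerase that untangles sister chromatids and the most abundant of the 43 in CPM in the controls, was counted at 134 and 183 CPM in the controls and 78.5 and 66.1 CPM with C/EBPβ (-1.13, standard error 0.17, adjusted p = 0.00285). Mki67, which coats mitotic chromosomes and marks cycling cells, stood at 74.7 and 121 against 44.7 and 36.8 CPM (-1.26, adjusted p = 0.0188). Its control libraries differed from each other by 0.70 on the log2 scale, the widest such gap among the 43, and its adjusted p rose past the threshold when low-count genes were kept, to 0.0576, the highest over all settings.

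Condensin I is a ring of Smc2 and Smc4 closed by Ncaph, with Ncapd2 and Ncapg bound to it. Smc2 (chr4:52439243-52488260) stood at 47.8 and 62.2 CPM in the controls and 28.4 and 25.3 CPM with C/EBPβ (-1.03, standard error 0.14, adjusted p = 0.0012). Its partner Smc4 (chr3:69004738-69034623) stood at 116 and 149 against 116 and 102 CPM, with a log2 fold change of -0.29, a 95% interval of -0.60 to 0.02 and an adjusted p of 0.12. Control library 1 and C/EBPβ library 1 differed for Smc4 by only 0.0069 on the log2 scale. It passed in 2 of 13 alternative settings, those without control library 1 and without C/EBPβ library 1, with adjusted p from 0.00375 to 0.593 over all settings. The Smc2 to Smc4 ratio in FPKM was 0.392 and 0.396 in the controls and 0.234 and 0.236 with C/EBPβ. The other condensin I subunits fell, with log2 fold changes of -0.83 for Ncapd2 (adjusted p = 0.00177), -1.02 for Ncapg (0.00265) and -0.89 for Ncaph (0.0028). Smc2 and Smc4 also belong to condensin II, whose own subunits are given with the other lists.

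**Figure D3:**
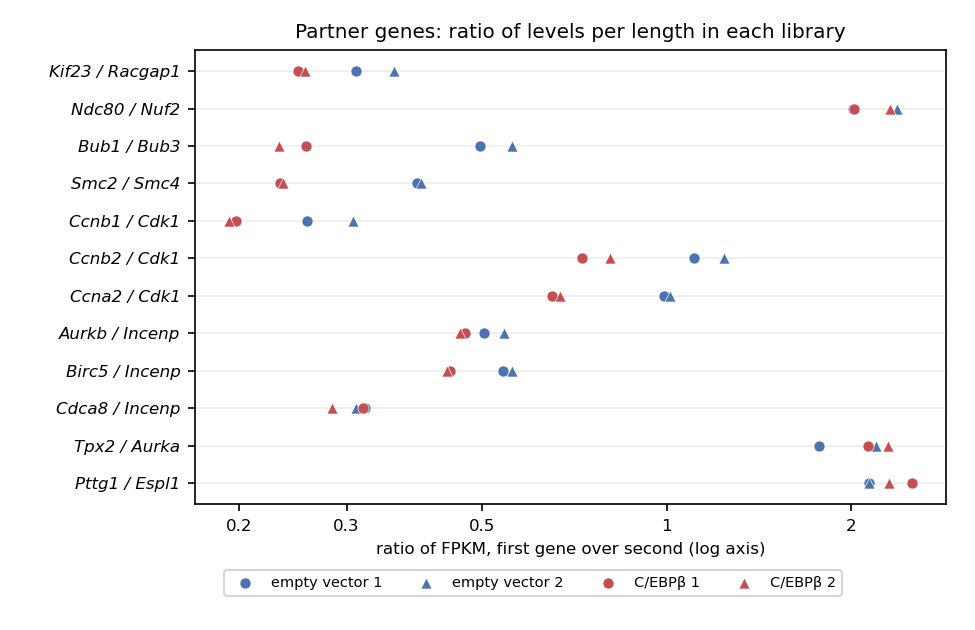
Ratio of FPKM values for pairs of genes whose products act together, 1 point per library, on a log axis. The ratios of Smc2 to Smc4 and of Bub1 to Bub3 fall well below their control values with C/EBPβ, while those of Ndc80 to Nuf2, Cdca8 to Incenp and Tpx2 to Aurka overlap between the groups.

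The kinases Aurora A and Polo-like kinase 1 build the spindle poles and drive entry and exit. Aurka was counted at 15.3 and 16.7 CPM in the controls and 8.31 and 5.96 CPM with C/EBPβ (-1.16, adjusted p = 0.0013), with control libraries that lay close together. Plk1 stood at 20.3 and 28.3 against 13.1 and 10.0 CPM (-1.07, adjusted p = 0.00606). The groups were apart for both kinases. Tpx2, which activates Aurora A on spindle microtubules, fell by 1.03 on the log2 scale, and its FPKM ratio to Aurka overlapped between the groups.

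All 4 genes of the chromosomal passenger complex, which corrects faulty attachments and later moves to the midzone, were lower. Birc5, survivin (chr11:117849251-117855743), stood at 23.4 and 31.7 CPM in the controls and 13.6 and 10.9 CPM with C/EBPβ (-1.16, adjusted p = 0.00247). Aurkb, its kinase subunit, fell by 1.02 (adjusted p = 0.00623), the scaffold Incenp by 0.85 (0.00636) and Cdca8, borealin, by 0.90 (0.00871). The call of Cdca8 was lost without control library 2. Relative to Incenp, Birc5 was at 0.541 and 0.558 in the controls and 0.444 and 0.438 with C/EBPβ, and Aurkb at 0.504 and 0.543 against 0.468 and 0.460, whereas Cdca8 overlapped at 0.321 and 0.311 against 0.319 and 0.284.

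The spindle checkpoint had 4 of its 5 genes lower. Bub1, a kinase that recruits the others to kinetochores (chr2:127801122-127831865), stood at 23.2 and 28.5 CPM in the controls and 11.6 and 10.1 CPM with C/EBPβ (-1.25, standard error 0.13, adjusted p = 0.000329). Bub3 (chr7:131560222-131571895), the adaptor that carries Bub1 and Bub1b to the kinetochore, stood at 75.3 and 81.8 against 72.4 and 70.1 CPM, a log2 fold change of -0.14 with a 95% interval of -0.33 to 0.04 (adjusted p = 0.193). That interval does not reach the median change of the 43 genes, and Bub3 passed in 0 of the 13 alternatives, with adjusted p from 0.159 to 0.604. The ratio of Bub1 to Bub3 in FPKM went from 0.496 and 0.559 to 0.258 and 0.233. Bub1b, a component of the inhibitor of the anaphase-promoting complex, fell by 1.07 (adjusted p = 0.00166), and Ttk, the kinase that starts the signal, by 1.01 (0.00654). Mad2l1, which binds and holds Cdc20, stood at 23.0 and 31.7 against 17.5 and 13.7 CPM (-0.81, adjusted p = 0.0148). Its call was lost without control library 2 and with the replicate block, where its adjusted p of 0.0558 and 0.0554 were the highest over all settings.

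Kinetochore genes were lower in 5 of 5 cases and within a narrow range of log2 fold changes, from -1.20 to -1.12. Cenpa, the histone variant that marks centromeres, stood at 27.5 and 37.3 CPM in the controls and 16.6 and 13.1 CPM with C/EBPβ (-1.12, adjusted p = 0.00347). Ndc80 and Nuf2, which together grip microtubules, fell by 1.20 and 1.15, and the ratio of Ndc80 to Nuf2 was 2.02 and 2.38 in the controls and 2.02 and 2.32 with C/EBPβ. Their proportion to each other thus overlapped while both transcripts were lower. Cenpe, a kinetochore motor, fell by 1.13 (adjusted p = 0.00708). Cenpf, a large protein of the outer kinetochore, stood at 32.3 and 51.4 against 21.1 and 17.1 CPM (-1.13, adjusted p = 0.0201). It missed the threshold when low-count genes were kept and with the replicate block, at adjusted p of 0.0512 and 0.0515, the latter the highest over all settings.

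Spindle motors and microtubule binders fell in 5 of 5 cases with a median of -0.99. Kif11, the motor that pushes the poles apart, stood at 28.4 and 36.6 CPM in the controls and 16.7 and 16.0 CPM with C/EBPβ (-0.99, standard error 0.13, adjusted p = 0.000912). The C/EBPβ libraries were nearly level for it and well below both controls. Hmmr, which binds microtubules and hyaluronan, fell by 1.06 (adjusted p = 0.0015), Nusap1, a microtubule bundler, by 0.99 (0.00518) and Kif2c, which takes microtubules apart at centromeres, by 0.93 (0.0155). Kif2c lost its call without control library 2 and with the replicate block, and its adjusted p reached at most 0.0535 over all settings.

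The genes of the central spindle and cytokinesis had the lowest median of the 9 roles, at -1.21, with 6 of 6 lower. Kif23 (chr9:61915905-61946774) stood at 30.3 and 44.9 CPM in the controls and 14.9 and 12.96 CPM with C/EBPβ, a log2 fold change of -1.43 (standard error 0.20, adjusted p = 0.00253). Ect2, the exchange factor that switches on RhoA at the furrow, stood at 29.1 and 39.5 against 14.1 and 12.6 CPM (-1.36, adjusted p = 0.000704). Anln, anillin, the scaffold of the contractile ring, stood at 87.7 and 111 against 43.3 and 40.3 CPM (-1.25, standard error 0.12) and had the smallest adjusted p of the 43, 0.000287. In each of these 3 both C/EBPβ libraries lay close together and far below either control. Prc1, which cross-links the midzone microtubules, fell by 1.16 (adjusted p = 0.00188), and Racgap1, the partner of Kif23 in the centralspindlin complex, by 1.02 (0.00169). The ratio of Kif23 to Racgap1 was 0.311 and 0.359 in the controls and 0.250 and 0.257 with C/EBPβ. Kif20a, another midzone motor, stood at 51.7 and 64.2 against 38.0 and 28.4 CPM (-0.80, adjusted p = 0.011). Kif20a shares 25.2% of its windows with other genes when strand is ignored, most with its neighbour Cdc23, which lies on the opposite strand. Of its exon bases 0% lie under exons of another gene on its own strand. Counting was by strand, and the part of Cdc23 fragments in its value was not tested. Its call was lost without control library 2.

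Anaphase is set off by Cdc20 and Ube2c, which turn the anaphase-promoting complex on securin (Pttg1) and so free separase (Espl1). All 4 were lower. Cdc20 stood at 34.7 and 46.0 CPM in the controls and 24.0 and 17.0 CPM with C/EBPβ (-0.97, adjusted p = 0.0137). Espl1 stood at 24.1 and 31.9 against 14.4 and 11.3 CPM (-1.12, adjusted p = 0.00263), and Pttg1 at 15.6 and 20.6 against 10.9 and 7.85 CPM (-0.94, adjusted p = 0.00899). The FPKM ratio of Pttg1 to Espl1 was 2.14 in both controls and 2.51 and 2.30 with C/EBPβ. Without control library 2 the calls of Cdc20 and Pttg1 were lost.

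Ube2c (chr2:164769898-164778822, plus strand) stood at 69.6 and 104 CPM in the controls and 29.8 and 34.8 CPM with C/EBPβ, a log2 fold change of -1.43 (standard error 0.21, adjusted p = 0.00389). It was the only one of the 43 with C/EBPβ library 2 above library 1. The gene overlaps Tnnc2, fast troponin C (chr2:164777161-164779967, minus strand), and shares 16.0% of its windows with it and other genes when strand is ignored. Tnnc2 was counted at 1082 and 1280 CPM in the controls and 288 and 490 CPM with C/EBPβ, and was likewise higher in C/EBPβ library 2. Counting was on the reverse strand, per the file headers, and the part of Tnnc2 fragments in the value of Ube2c was not tested. Of the 43 genes 8 share over 10% of their windows with other genes, and 11 share none.

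**Figure D4:**
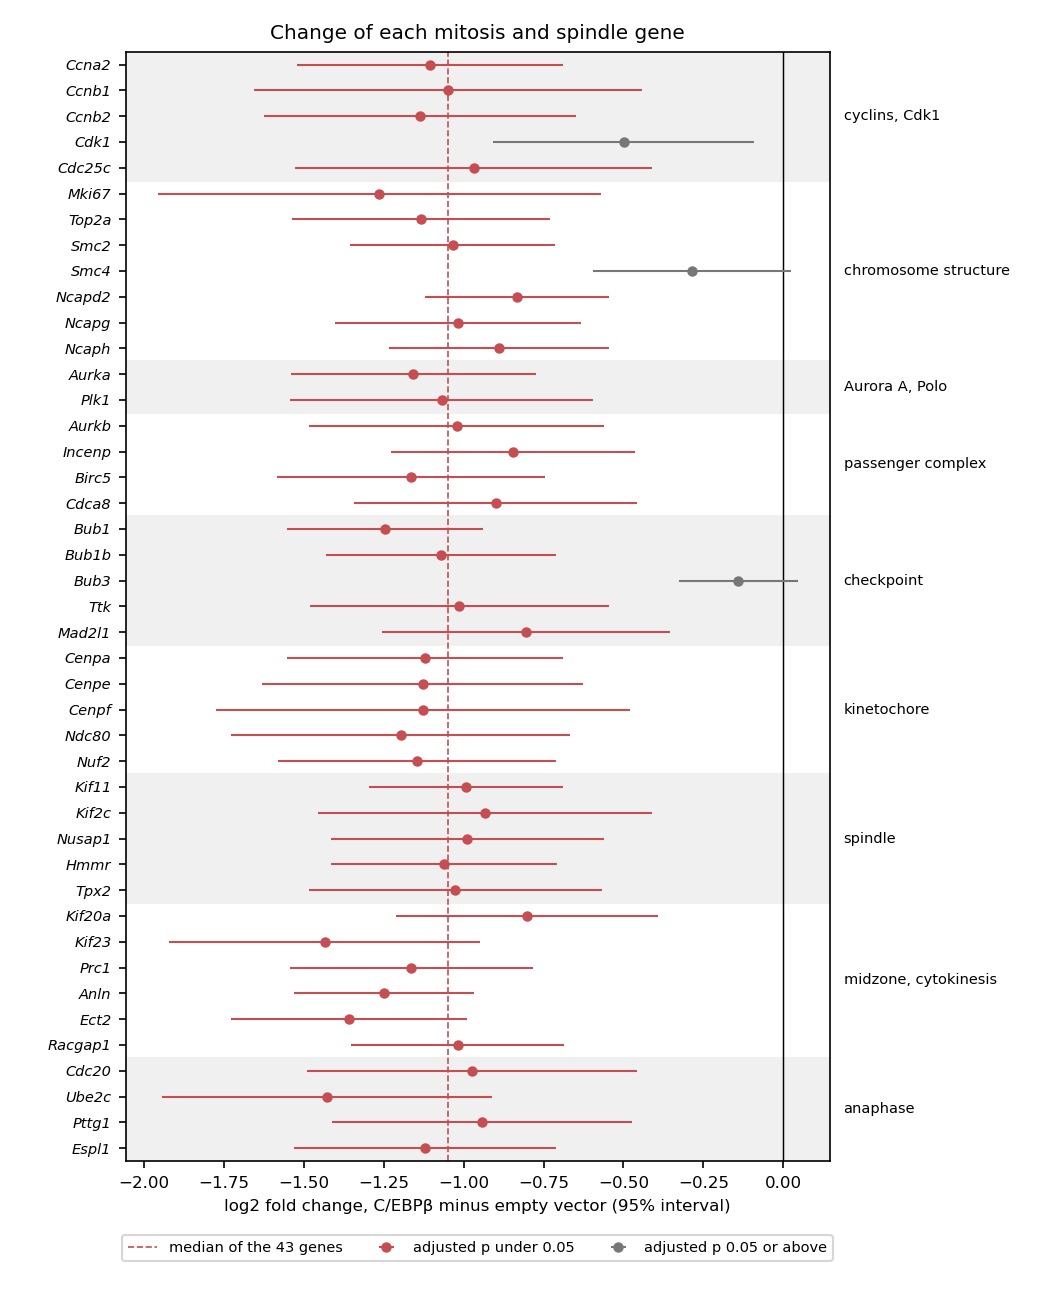
Log2 fold change of each of the 43 genes, C/EBPβ against empty vector, with 95% intervals, grouped by role. The intervals of Bub3 and Smc4 cross 0, that of Cdk1 stays just below it without passing the adjusted threshold, and the rest lie further below.

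Per length of transcript, the controls expressed Ube2c most, at 33.4 ± 9.29 FPKM (SD, n = 2), followed by Smc4 at 25.5 ± 4.49, Cdc20 at 21.6 ± 4.27, Ccnb2 at 18.6 ± 5.32 and Top2a at 17.6 ± 3.83 FPKM. Each step in this order was smaller than the SD of the higher gene. The part of fragments from the overlapping Tnnc2 in the value of Ube2c was not tested. Cenpf was the lowest, at 2.71 ± 0.877 FPKM. With C/EBPβ the order changed at the top: Smc4 led at 20.9 ± 1.86 FPKM, ahead of Ube2c at 12.4 ± 1.35, Cdk1 at 11.1 ± 1.65, Cdc20 at 10.96 ± 2.67 and Bub3 at 10.2 ± 0.237 FPKM. The 3 genes that did not pass were thus all among the 5 highest there.

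The authors' deposited table holds all 43 genes, with 42 lower at its adjusted p under 0.05 and none higher. Their log2 fold changes there ran from -1.46 to -0.20 around a median of -1.08. Among all genes tested by the authors 20.9% were lower and the median was -0.04. In the authors' deposited table Cdk1 (-0.55, adjusted p = 0.00175) and Smc4 (-0.34, adjusted p = 0.0312) passed, and Bub3 (-0.20, adjusted p = 0.0983) did not. The values of that table may not rest on the counts of these 4 libraries alone. The ratio of the authors' mean signal to the mean of these libraries was taken over 11659 genes with a mean of at least 100 fragments. It lay within 1% of its median for 4.19% of genes. Other libraries or other counts may have entered the table, and which of these holds was not tested.

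Other cell cycle genes were counted in 8 further lists, to show where the 43 differ from their neighbours in the cycle. Among other spindle and centrosome genes 24 of 28 were lower and none higher, with a median log2 fold change of -0.96. The largest falls there were Kif15, a spindle motor (-1.34), Troap, a microtubule-associated protein (-1.33), and Kif20b, a kinesin of cytokinesis (-1.26). Among other kinetochore genes 23 of 35 were lower and none higher, with a median of -0.56. Ska1 (-1.38), Spc24 (-1.23) and Kntc1 (-1.22), which serve microtubule attachment and the checkpoint, fell most. Without control library 2 only 11 of these 35 were lower.

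Regulators of mitotic entry were lower in 7 of 12 cases, with a median of -0.58, led by the kinases Melk (-1.26), Pbk (-0.90) and Mastl (-0.89). DNA replication genes were lower in 33 of 35 cases with a smaller median of -0.65. Cdc6 (-1.29) and Mcm10 (-1.18), which load and start the replicative helicase, and Ccne2, cyclin E2 (-1.18), fell most. Orc6, a subunit of the origin recognition complex, was the 1 that rose, by 0.43 (chosen after its value was seen). Without control library 2 the 33 became 19.

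Cohesin and condensin II genes were lower in 7 of 14 cases, with a median of -0.18. Cdca5, sororin (-1.09), Esco2, the cohesin acetyltransferase (-1.08), and the condensin II subunit Ncapg2 (-1.02) fell by about as much as the mitotic genes. The other condensin II subunits, named after their values were seen, fell by less: Ncapd3 (-0.50, adjusted p = 0.013) and Ncaph2 (-0.29, adjusted p = 0.0179). Of the cohesin ring subunits, Smc1a (-0.04) and Smc3 (-0.11) did not pass, whereas Rad21 (-0.29, adjusted p = 0.0376) was lower. Wapl, which releases cohesin, was also lower (-0.25, adjusted p = 0.048). These 4 were named after their values were seen. The 7 became 4 without control library 1 and 3 without control library 2.

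In the anaphase-promoting complex 4 of 17 genes were lower and 4 higher, with a median of 0.03, near the shares over all genes (20.9% lower and 22.4% higher). Its inhibitor Fbxo5 fell by 0.80, while the subunits Anapc13 and Anapc5 rose by 0.58 and 0.41. The other calls, named after their values were seen, were falls of Cdc27 (-0.40), Ube2s (-0.33) and Fzr1 (-0.27) and rises of Anapc10 (0.40) and Cdc16 (0.24). The 4 lower calls became 2 without control library 1 or C/EBPβ library 2 and with library sizes alone, and 0 without control library 2.

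**Figure D5:**
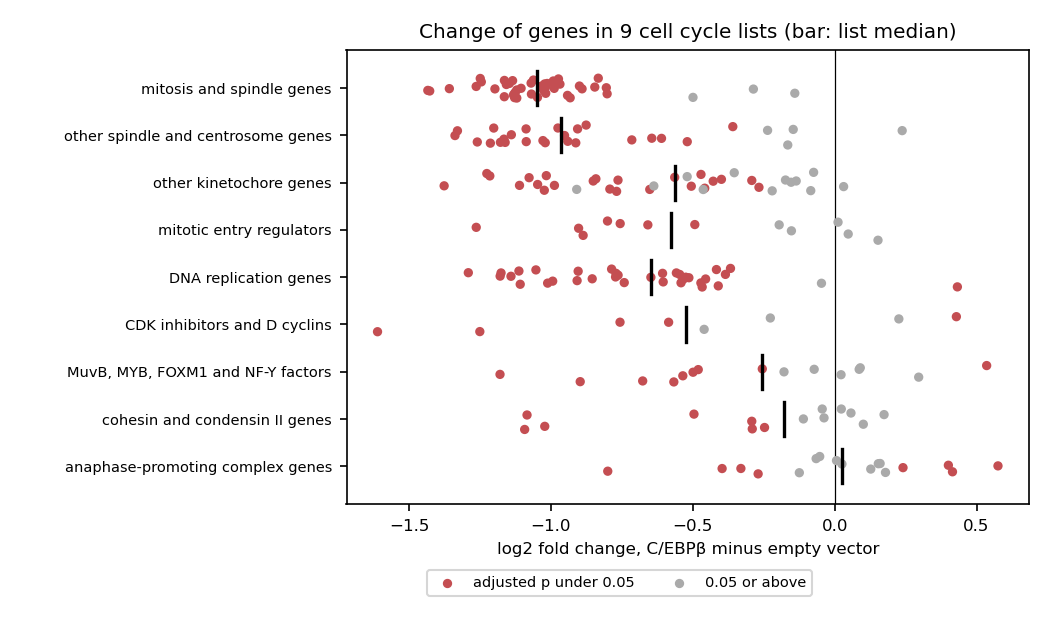
Log2 fold changes of the genes of each list, 1 point per gene, with the list's median as a bar. The mitosis and spindle genes and the other spindle genes centre near -1, replication and kinetochore genes nearer to 0, and the anaphase-promoting complex on 0.

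Among the factors known to act on CHR, E2F and CCAAT elements 8 of 15 were lower and 1 higher, with a median of -0.26. Mybl2, B-Myb, stood at 6.22 and 6.80 CPM in the controls and 2.85 and 2.90 CPM with C/EBPβ (-1.18, adjusted p = 0.000816). Foxm1, the forkhead activator of mitotic genes, stood at 37.3 and 43.2 against 24.4 and 18.7 CPM (-0.90, adjusted p = 0.00261). Both activators were therefore lower in both C/EBPβ libraries than in either control. Of the pocket proteins of the DREAM complex, Rbl1 (p107) fell by 0.68 and Rbl2 (p130), named after its value was seen, rose from 70.5 and 61.0 to 97.3 and 93.2 CPM (0.54, adjusted p = 0.00277). The other lower factors of this list were E2f4 (-0.57), Lin9 (-0.54), Lin37 (-0.50), Lin54 (-0.48) and Tfdp1 (-0.26). E2f5 (0.30), Lin52 (0.09) and Tfdp2 (0.02) did not pass. The NF-Y subunits Nfya (-0.07), Nfyb (0.09) and Nfyc (-0.18) did not pass. Without control library 2 the 8 lower calls became 4.

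Inhibitors of cyclin-dependent kinases and the D cyclins did not move in 1 direction. Cdkn1a, p21, which rises as myoblasts leave the cycle, stood at 2241 and 2248 CPM in the controls and 605 and 865 CPM with C/EBPβ (-1.61, standard error 0.18, adjusted p = 0.000477). The inhibitor was thus lower in the same libraries in which the mitotic genes were lower. Cdkn1b, p27, named after its value was seen, rose from 97.8 and 96.9 to 134 and 129 CPM (0.43, adjusted p = 0.00327). Cyclin D2 (Ccnd2) and cyclin D3 (Ccnd3) fell by 1.25 and 0.76, and no fragment of Cdkn2a or Cdkn2b was counted in any library. In all, 4 of the 8 tested genes of this list were lower and 1 was higher. Myog, myogenin, which marks myoblasts committed to differentiate, stood at 1567 and 1728 CPM in the controls and 509 and 696 CPM with C/EBPβ (-1.45).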

How the data were processed

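The series holds 4 stranded mRNA libraries of C2C12 cells, grouped by their titles. The deposited counts are raw fragments assigned to each gene. The submitters' processing notes name HISAT2 2.0.4, GRCm38 and featureCounts 1.4.6, although the file headers name featureCounts 1.5.1 and give paired, reverse-strand counting against GENCODE M12. The authors' deposited table lists for each gene a mean signal, a log2 fold change with standard error, a score and a p-value, raw and adjusted; the notes name DESeq2.

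Counts were compared with edgeR 4.0.16 in R 4.3.3 (TMM, filterByExpr with a minimum count of 10, robust quasi-likelihood fit and test, 2-sided, Benjamini-Hochberg over 15886 genes, threshold 0.05). CPM use TMM-scaled library sizes, and FPKM divide them by the exon length in the files. Standard errors come from the F statistic. The libraries of a group were checked not to be copies: the chi-square per degree of freedom of their counts was 20.0 and 28.5. The fit was tested on simulated data. Shared sequence is the percent of a gene's 50-base windows found in other genes of GENCODE M21, either strand. Symbols matched 49326 of 49585 identifiers. Promoter windows and sequences are RefSeq's (GRCm38.p6); 7 genes had none.

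The members and lists were chosen with earlier results of these data known. The genes named are all 43 members, Cebpb, Foxm1, Mybl2 and Cdkn1a, and up to 3 called genes of at least 1 CPM with the largest change in each other list. Genes named outside this rule were picked with their values in view: Tnnc2, Orc6, Smc1a, Smc3, Anapc10, Cdc16, Cdc27, Fzr1, Ube2s, Rbl2, the NF-Y subunits, Cdkn1b, Cdkn2a, Cdkn2b, and Cdc23 and Ccnb1-ps as genes of shared sequence. So were Rad21, Wapl, Ncapd3, Ncaph2, E2f4, E2f5, Lin9, Lin37, Lin52, Lin54, Tfdp1 and Tfdp2. The markers singled out by name were picked likewise: Lyz2, Cd14, Csf1r, Itgam, Adgre1, Tyrobp, Ptprc, Myog, Myf5, Des and Chrna1. Alternatives were other scalings, low-count filters and tests (DESeq2 1.42.0, limma-voom 3.58.1), a replicate block and leaving out each library.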

Additional observations from a re-analysis of the deposited data

How the results depend on the processing

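All 43 mitosis and spindle genes kept the lower direction in the 13 alternative settings, 30 of the 40 called genes passed in every one, and of 559 pairs of gene and setting 537 stayed on the same side of the threshold and 0 reversed. The count of members called lower was between 36 and 41 under other scalings, filters, tests and the replicate block. Leaving out 1 library gave 33 to 42 members lower and 0 higher each time, with a median log2 fold change from -1.26 to -0.81; over all genes it gave 4013 to 7541 calls, 1855 to 3746 lower and 2158 to 3795 higher. An arm left with 1 library is assumed to vary like the other group. In the same settings the lower calls ran from 11 to 25 for other kinetochore genes, 20 to 25 for other spindle genes, 5 to 7 for entry regulators, 19 to 32 for DNA replication, 3 to 7 for cohesin and condensin II, 0 to 4 for the anaphase-promoting complex, 4 to 8 for the MuvB, MYB, FOXM1 and NF-Y factors and 3 to 6 for the inhibitors and D cyclins. With library sizes alone 2 genes of the anaphase-promoting complex were lower. On the strand of the gene alone CHR letters were in 59.0% and CCAAT in 48.7% of member windows. The causes were not tested.

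The replicate numbers do not pair the libraries by any label. Over the genes tested, the log2 difference between control libraries 1 and 2 correlated at 0.186 with that between C/EBPβ libraries 1 and 2. With the replicate number as a block 36 members were lower at a median of -1.02, Ccnb1, Mad2l1, Cenpf and Kif2c losing their calls, and 7600 genes were called in all. With 2 libraries a group and a biological coefficient of variation of 9.42%, the 3 members that did not pass had the smallest changes, 1.41-fold for Cdk1, 1.22-fold for Smc4 and 1.10-fold for Bub3, and the smallest change that passed was 1.74-fold.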
